A study of Diospyros lotus with 24 samples.

Results

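The contigs described here are 31 de novo assembled transcript contigs whose mRNA level was moderately higher in female than in male buds of the dioecious persimmon Diospyros lotus. They were chosen from the same bud libraries that are described below. A contig was taken when its mean over 19 mRNA libraries was at least 5 CPM (its counts divided by the column total of the library and brought to the same scale in each), when its mean CPM in females was at least 1.5 times that in males, and when the female was the higher tree in at least 81 of the 90 female-male pairs. Of the 417827 contigs of the mRNA table, 33795 reached 5 CPM and 31 of these met the whole rule. That is 0.0917% of them, and the same rule turned round, with males higher, took 10 contigs (0.0296%). With CPM scaled by TMM factors the rule took 25 contigs on either side. With RLE factors it took 29 with females higher and 10 with males higher. The imbalance of 31 against 10 thus depends on the scaling. The sex difference itself is therefore a property of the choice and is given only as a description.

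In persimmons of this kind sex follows an XY system. A small RNA encoded on the Y chromosome, from the locus OGI, represses the autosomal homeodomain gene MeGI, and MeGI activity feminises the flower. Flower organs of the sexes are laid down in bud primordia, which hold meristem, young flower, bract and leaf tissue together. No gene name stands beside a contig in the deposited tables, and 0 of the contig IDs matched an annotated gene, so no function is given to any contig here and the identity of the tissue could not be checked against marker genes.

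Buds of mixed kind came from trees of the KK family, a cross within the cultivar Kunsenshi. The female trees were 9 daughters and the mother, and the male trees were 8 sons and the father, with 1 library per tree. A further son, replicate 5, held 387 counts on 224 contigs and was not used. Per the labels, sampling took place on June 17 and July 4 of 2013, at early differentiation of the primordia. The labels do not tie a library to a date, so sex and sampling date cannot be told apart. The mother and the father also gave 1 bud small RNA library each.

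Totals of the 19 mRNA libraries ran from 3527282 to 15314430 counts, and the largest belonged to son 6. Female libraries averaged 5499889 ± 1131782 counts (SD, n = 10) and male libraries 8165873 ± 2835194 (SD, n = 9). Depth thus differed between the sexes (two-sided exact permutation test, p = 0.00121, adjusted over 2 library measures 0.00242). The difference of the means was below the SD of the male libraries, which include son 6, and above that of the females. The second measure, the slope of a library's log2 CPM on contig length, averaged 0.0122 ± 0.0458 log2 units per doubling of length in females and -0.0136 ± 0.0372 in males (SD, n = 10 and 9, two-sided exact permutation test, p = 0.200). In bulk buds, fewer cells of a type and less RNA per cell cannot be told apart.

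The 31 contigs were of middling abundance. Their mean over all libraries ran from 5.15 to 50.4 CPM with a median of 11.2, against a median of 14.9 CPM over the 33795 contigs. The ratio of mean CPM, female over male, ran from 1.55 to 6.39 with a median of 2.04, and it was at least 2 in 16 contigs. In 5 contigs all 90 pairs had the higher female (0.0148% of the 33795 contigs did so), and in 5 others exactly 81 pairs did. The lowest count behind any of these values was 3, in Contig212562DeNovoAssembly.

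The 5 contigs without any overlap of the sexes were Contig196904DeNovoAssembly, Contig318451DeNovoAssembly, Contig314662DeNovoAssembly, Contig186568DeNovoAssembly and Contig297812DeNovoAssembly. In Contig318451DeNovoAssembly, 500 bases long, the females lay between 6.64 and 19.5 CPM with a median of 11.5, against 3.20 to 6.10 CPM with a median of 3.99 in the males. The lowest female of this contig was the mother, and she stood only just above the highest male. Its females averaged 11.6 ± 4.26 CPM (SD over 10 trees) and its males 4.33 ± 0.850 CPM (SD over 9 trees), so the females spread more widely than the males.

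Contig186568DeNovoAssembly was the longest of the 31 at 8155 bases. Its females ran from 9.37 to 18.2 CPM with a median of 12.1, against 3.17 to 8.77 CPM with a median of 6.26 in males. The extremes of this contig were the parents, since the mother was the highest female and the father the highest male. Contig297812DeNovoAssembly, of 2024 bases, lay at 18.1 to 28.9 CPM in females with a median of 22.6, against 8.48 to 14.6 CPM with a median of 11.9 in males. The SD of this contig was 3.42 CPM in females and 2.20 CPM in males, and its lowest female, a daughter, stood clear of every male.

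The other contigs without overlap were the most and the third most abundant of the 31. Contig314662DeNovoAssembly, of 2331 bases, ran from 48.5 to 105.7 CPM in females with a median of 69.2, against 20.4 to 34.4 CPM with a median of 29.3 in males. Contig196904DeNovoAssembly, of 4329 bases, ran from 28.4 to 56.7 CPM in females with a median of 39.3, against 10.2 to 21.2 CPM with a median of 14.3 in males. Between these in abundance was Contig300284DeNovoAssembly, of 5638 bases, at 28.0 to 60.2 CPM in females with a median of 55.7, against 18.4 to 31.5 CPM with a median of 26.8 in males. Its sexes overlapped through the mother alone: at 28.0 CPM she lay below 4 of the sons, whereas the 9 daughters began at 42.5 CPM and the 8 sons ended at 31.5 CPM.

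Contig212562DeNovoAssembly had the largest ratio and was also the least orderly. It measured 12.3 to 26.0 CPM in 7 daughters, 1.42 CPM in daughter 1, 3.07 CPM in daughter 6 and 54.9 CPM in the mother. Son 6 had 16.1 CPM, whereas the other 7 sons had 0.413 to 2.23 CPM and the father 1.90 CPM. Daughter 1 thus fell among the low males, daughter 6 just above them and son 6 among the high females, while the mother exceeded the father 28.9-fold. The name "moderately higher" describes the ratio of the sexes in the other 30 contigs, at 1.55 to 2.73, better than in this contig.

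**Figure D1:**
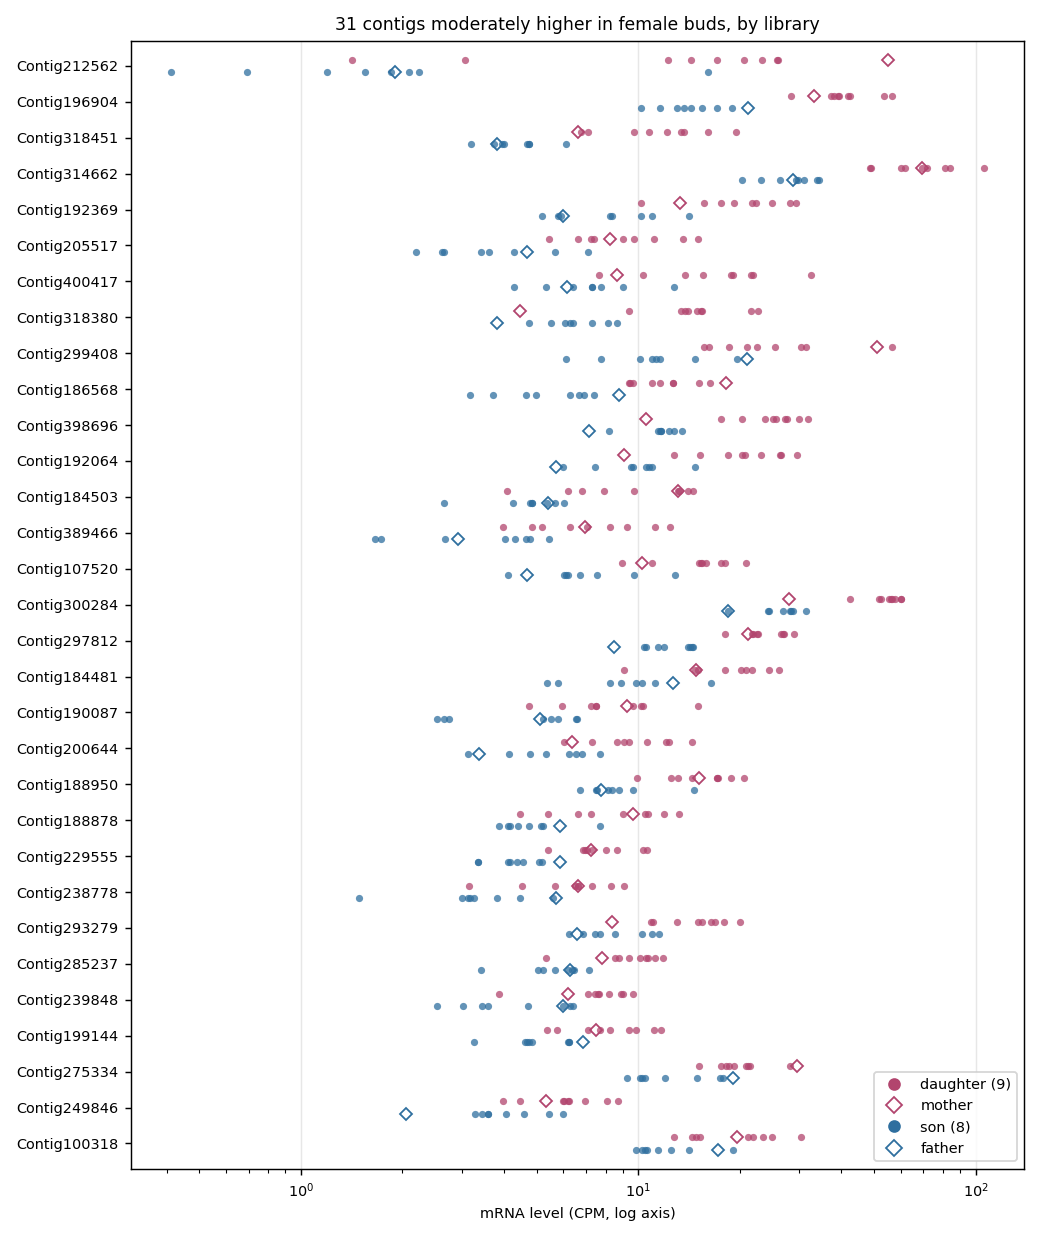
mRNA level of the 31 contigs in each of 19 libraries, in CPM on a log axis, with contigs ordered by the ratio of female to male mean CPM from the highest at the top; female trees are drawn above male trees of the same contig, circles are progeny, diamonds are the parents, and the ending DeNovoAssembly is left out of the IDs. The sexes separate fully in 5 contigs, and in Contig212562 the 2 low daughters and the 1 high son lie inside the range of the other sex.

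At the edges of the rule the contigs formed no gap. Contig100318DeNovoAssembly, at a ratio of 1.55, lay just inside the ratio limit, and Contig300341DeNovoAssembly, at 1.49 with 82 pairs, lay just outside. Contig249846DeNovoAssembly averaged 5.15 CPM and was just inside the abundance limit, and Contig316125DeNovoAssembly averaged 4.90 CPM and was just outside, although its ratio was 2.50 and all 90 of its pairs had the higher female. Of the contigs at 81 pairs Contig212562DeNovoAssembly had the largest ratio, and Contig315599DeNovoAssembly, at 80 pairs, was left out at a ratio of 2.77. In all, 7 contigs with 80 pairs met both other limits, 13 contigs with at least 81 pairs had too small a ratio, and 170 contigs met the ratio and pair limits below 5 CPM.

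Per length, the order of abundance changed. Mean CPM per kilobase was highest in the short contigs Contig275334DeNovoAssembly (58.5, over 298 bases), Contig293279DeNovoAssembly (37.5, over 311 bases) and Contig229555DeNovoAssembly (29.0, over 215 bases, the shortest of the 31). The lowest mean CPM per kilobase was 1.04, in Contig190087DeNovoAssembly of 6559 bases. In Contig275334DeNovoAssembly the females ran from 15.1 to 29.6 CPM with a median of 20.1, against 9.24 to 19.2 CPM with a median of 12.0 in the males, and the ranges overlapped. In Contig229555DeNovoAssembly they ran from 5.39 to 10.6 CPM with a median of 7.25, against 3.35 to 5.85 CPM with a median of 4.37 in the males, and a single pair, of the lowest daughter and the father, was out of order.

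An edgeR quasi-likelihood fit of female over male across 63600 contigs, with Benjamini-Hochberg adjustment over all of them, called 12 of the 31 contigs higher in females at an adjusted p under 0.05, and 0 lower, with all 31 fold changes above 0. The background was 0.0355% of contigs at 5 CPM or more called higher and 0.00888% called lower, and since the rule used this same contrast nothing is read from the count. The log2 fold changes of the 31 ran from 0.63 to 2.62 with a median of 1.03, against -0.02 over the contigs at 5 CPM or more. The largest SE was that of Contig212562DeNovoAssembly, at 2.62 ± 0.66 (SE), and the adjusted p of this contig was 0.572. With the log2 library total as a further term, 5 of the 31 were called, all 31 fold changes stayed above 0, and their median was 1.07.

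The 31 contigs included more long ones than the background. Their median length was 1711 bases, within a range of 215 to 8155, against 1268 bases over the 33795 contigs and 1223 bases over the 10 contigs higher in males. At least 5000 bases were found in 7 of the 31 (22.6%), against 4.53% of the 33795 contigs and 0 of the 10. Short contigs, under 350 bases, were also 7 of the 31 (22.6%), against 15.9%. Over all contigs of at least 5000 bases the median log2 ratio of female to male mean CPM was 0.12, whereas in 4 shorter length classes it lay between -0.05 and -0.01. The rule reached 0.457% of contigs of at least 5000 bases. In the shorter classes it reached 0.130% (under 350 bases), 0.0593% (350 to 1000), 0.0413% (1000 to 2000) and 0.0913% (2000 to 5000). The higher median of the longest class is taken over all its contigs, and its part in the choice of the 7 long ones was not tested.

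Within the limits of the rule, trees differed in how often the 31 contigs were out of order in their pairs. Over 31 contigs and 90 pairs of trees there were 2790 comparisons, and in 173 of them (6.20%) the female was not the higher tree. The rule had required at least 81 of the 90 pairs in order in each contig, so this share was bounded by the choice. The same share was not taken per tree over all contigs, so the counts per tree describe the 31 contigs only. Daughter 9 was the female in 53 of these, the mother in 41 and daughter 1 in 28, so that these trees held 122 of the 173. Daughters 2 and 4 were each the female in 1. Among males, son 6 took part in 40 and the father in 26, and the other sons in 9 to 21 each.

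The median difference of the 31 contigs from the progeny mean of the tree's own sex was lowest in daughter 9, at -0.48 on the log2(CPM + 0.5) scale, and highest in daughter 4, at 0.30. Over the 33795 contigs the same medians were 0.05 in daughter 9 and 0.01 in daughter 4. Scaling and centring hold such a median near 0 in every progeny tree. It thus cannot show whether a shift is particular to the 31 contigs. Daughter 9 stood above the daughters' mean in 6 of the 31 contigs and daughter 4 in 26. Son 6 stood above the sons' mean in 25 contigs, with a median difference of 0.26, against 0.01 over all contigs. Son 6 was the deepest library and daughter 9, at 6963244 counts, was the deepest of the daughters. On the first principal component of all contigs, centred within sex, daughter 9 scored lowest of the progeny (-0.378). Daughter 4 (0.431) scored highest of the daughters and son 6 (0.381) highest of the sons. Among progeny of their sex, daughter 9 also had the lowest length slope (-0.0463) and son 6 the highest (0.0398). The part of depth, of this component and of the length slope in these tree differences was not tested for single trees. Within sex, an edgeR fit called a relation to log2 library total in 0 of the 31 contigs at an adjusted p under 0.05, in 1 at an unadjusted p under 0.05, and in 0 of all 63600 contigs. The coefficient was above 0 in 23 of the 31, against 46.3% of contigs at 5 CPM or more.

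**Figure D2:**
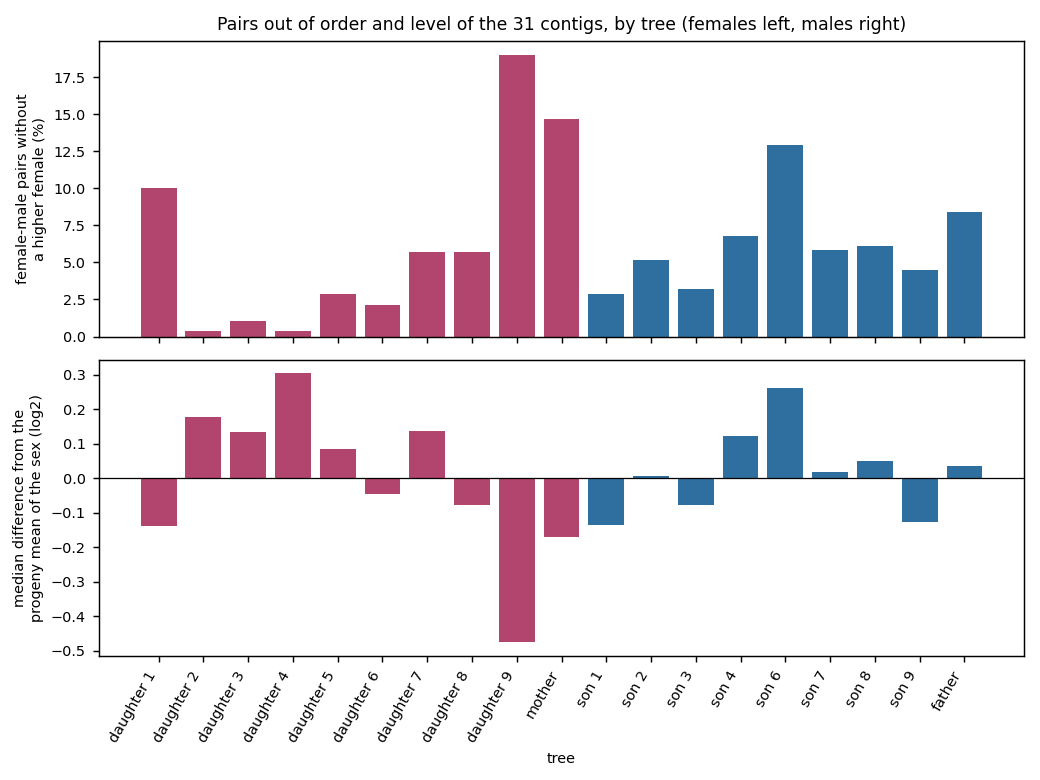
For each of 19 trees, females at the left and males at the right, the upper bars give the percentage of its female-male comparisons over 31 contigs in which the female was not the higher tree, and the lower bars give the median difference of the 31 contigs from the progeny mean of the tree's own sex in log2 units of CPM + 0.5. Daughter 9 has the tallest upper bar and the lowest lower bar (-0.48), and son 6 has the tallest upper bar of the males (12.9%).

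Within a sex the contigs varied somewhat more than the background. The SD of log2(CPM + 0.5) had a median of 0.372 among daughters and 0.326 among sons, against 0.308 and 0.270 over the 33795 contigs. Daughters had the larger SD in 17 of the 31 contigs, against 63.4% of all contigs. The biological coefficient of variation that edgeR fitted had a median of 0.283 in the 31 contigs and 0.242 in the contigs at 5 CPM or more.

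The contigs also varied together, beyond the shared sex difference. The levels of the 17 progeny were centred within sex, and Pearson's r was taken for each of the 465 pairs of contigs. Its median was 0.195, against 0.01 over the 571034115 pairs of all 33795 contigs, and 47 pairs (10.1%) reached 0.6, against 2.18%. The median r was 0.309 among the 9 daughters and 0.0998 among the 8 sons, against 0.0128 and 0.00225 over all pairs. The 10 contigs higher in males had a median of 0.0347 over their 45 pairs in the 17 progeny, 0.0709 among daughters and 0.209 among sons. Among sons the median r of the 31 contigs was thus below that of the 10. The 10 include contigs nearly absent from females, with a female mean as low as 0.248 CPM, below the pseudocount of 0.5. The r of such contigs among daughters, and so over the 17 progeny, rests partly on values near the floor. All these pairs share the same libraries and their depth, so the values describe these trees and carry no p. The contigs were also chosen by a shared contrast over these trees, which may itself favour contigs that vary together. No choice by shuffled sex labels was made as a reference, so the part of the choice in the median r was not tested.

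Average linkage on these correlations, cut at a height of 0.4, placed 19 contigs in 6 groups and left 12 alone. The largest group held 7 contigs: Contig100318DeNovoAssembly, Contig184481DeNovoAssembly, Contig188878DeNovoAssembly, Contig192064DeNovoAssembly, Contig192369DeNovoAssembly, Contig205517DeNovoAssembly and Contig314662DeNovoAssembly. Their pairwise r ran from 0.469 to 0.882 with a median of 0.726, and the medians were 0.764 among daughters and 0.669 among sons. The closest pair of the 31 was Contig205517DeNovoAssembly with Contig184481DeNovoAssembly, at 0.882, and Contig192369DeNovoAssembly with Contig184481DeNovoAssembly reached 0.847. The 7 lengths ran from 1457 to 7026 bases.

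Tree by tree, all 7 contigs of this group were above the daughters' mean in daughters 2, 3 and 4, and all 7 were below it in daughters 1, 8 and 9. The mean difference was 0.54 in daughter 4 and -0.74 in daughter 9, in log2 units of CPM + 0.5. Among sons, all 7 were above the mean in son 6, by 0.65 on average, and 6 of the 7 were below it in sons 1, 8 and 9. In Contig205517DeNovoAssembly the daughters ran from 5.46 to 15.05 CPM with a median of 9.04, against 2.19 to 7.12 CPM with a median of 3.52 in the sons, and the ranges overlapped. In Contig184481DeNovoAssembly they ran from 9.05 to 26.2 CPM with a median of 20.2, against 5.37 to 16.4 CPM with a median of 9.38 in the sons, again with overlap.

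A second group held Contig186568DeNovoAssembly, Contig190087DeNovoAssembly, Contig249846DeNovoAssembly and Contig293279DeNovoAssembly, with a median r of 0.711. It joined 2 of the longest contigs with 2 of the shortest, since its lengths ran from 278 to 8155 bases, and Contig293279DeNovoAssembly with Contig249846DeNovoAssembly gave its highest r, at 0.864. All 4 were above the sons' mean in sons 6, 7 and 8 and below it in sons 1, 4 and 9. Among daughters all 4 were below the mean in daughters 1 and 9 and above it in daughter 4. Son 8 was thus low in the first group, by a mean difference of -0.39, and high in the second, at 0.36.

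The other groups were pairs of contigs. Contig238778DeNovoAssembly and Contig239848DeNovoAssembly, of 268 and 315 bases, had an r of 0.817. Contig199144DeNovoAssembly with Contig400417DeNovoAssembly had 0.727, Contig188950DeNovoAssembly with Contig299408DeNovoAssembly 0.716, and Contig212562DeNovoAssembly with Contig389466DeNovoAssembly 0.614. Without sequences it could not be checked whether contigs that moved together are pieces of 1 transcript. The contigs standing most apart were Contig107520DeNovoAssembly, with a mean r of -0.15 to the other 30, and Contig229555DeNovoAssembly, at -0.10. The highest mean r were 0.373 in Contig188878DeNovoAssembly, 0.370 in Contig184481DeNovoAssembly and 0.361 in Contig400417DeNovoAssembly.

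**Figure D3:**
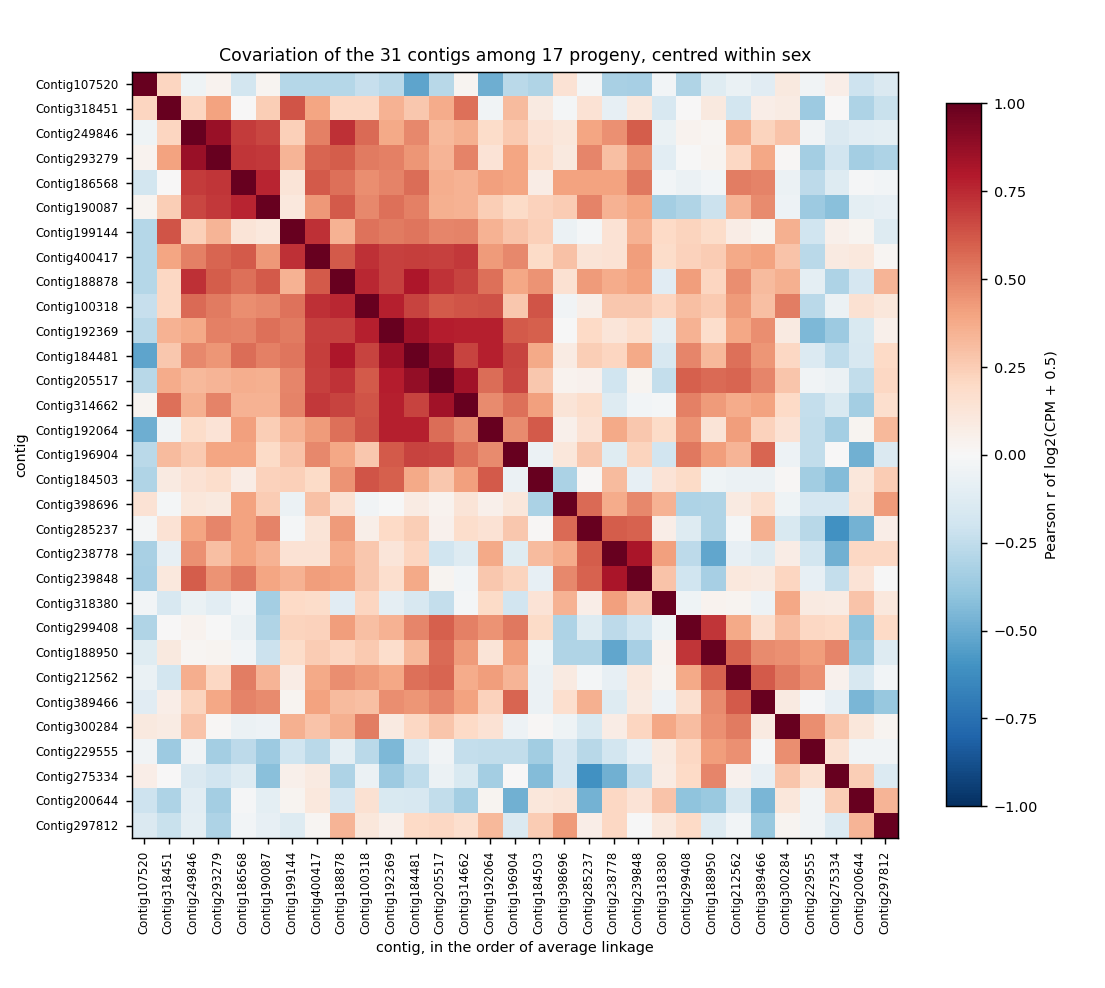
Pearson's r between the 31 contigs over 17 progeny, from log2(CPM + 0.5) centred within sex, as a colour from -1 (blue) to 1 (red), with contigs in the order of average linkage and the ending DeNovoAssembly left out of the IDs. The dark block in the upper left holds the groups of 4 and 7 contigs and, between them, the pair of Contig199144 and Contig400417. Contig107520, in the top row, has a mean r of -0.15 with the others.

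This covariation ran alongside the length slope of the libraries. In 26 of the 31 contigs the centred level correlated positively with the slope over the 17 progeny, against 50.1% of all contigs, and the median r was 0.297, against 0.000683. The r with the slope was 0.830 in Contig205517DeNovoAssembly and 0.822 in Contig184481DeNovoAssembly, whereas it was -0.33 in Contig200644DeNovoAssembly. With the slope regressed out, the median r between the 31 contigs was 0.119, against 0.0814 between the contigs higher in males. With the first principal component of all contigs regressed out, which held 18.8% of the variance within sex, it was 0.0640. That was below the 0.111 of the contigs higher in males and above the 0.00975 of all pairs. Of the pairs of the 31 contigs, 3.23% then reached 0.6, against 1.69% of all pairs. With log2 library total regressed out, the median r of the 31 contigs was 0.181, against 0.0559 for the contigs higher in males. As above, the r of the contigs higher in males rests partly on values near the floor. Leaving out daughter 9 gave 0.138, the lowest value of any tree left out.

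The parents entered the choice, so the order of mother and father in the 31 contigs is a description. The mother was above the father in all 31, as in 50.1% of the 33795 contigs. The ratio of mother to father had a median of 1.65 and ran from 1.04 in Contig239848DeNovoAssembly to 28.9, and it was at least 1.5 in 20 contigs. The ratio of the daughters' mean to the sons' mean had a median of 2.07. The mother lay below the lowest daughter in 6 contigs and above the highest in 3. The father lay below the lowest son in 6 and above the highest in 7.

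To read the parents apart from the choice, the rule was applied to the 17 progeny alone, with at least 65 of 72 pairs. It took 58 contigs, 29 of them among the 31. In 40 of the 58 (69.0%) the mother was above the father, against 49.9% of 33687 contigs at 5 CPM in the progeny. The median ratio of mother to father was 1.17. That of the daughters' to the sons' mean was 1.84, but there the choice had required at least 1.5. The lower value in the parents is thus not read as a smaller sex difference. A ratio of at least 1.5 between mother and father was found in 22 of the 58 (37.9%), against 9.98%. Of the 20 contigs that the progeny gave on the male side, 3 had the mother above the father, with a median ratio of 0.800. Each parent is 1 library and contigs share it, so no test was made.

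**Figure D4:**
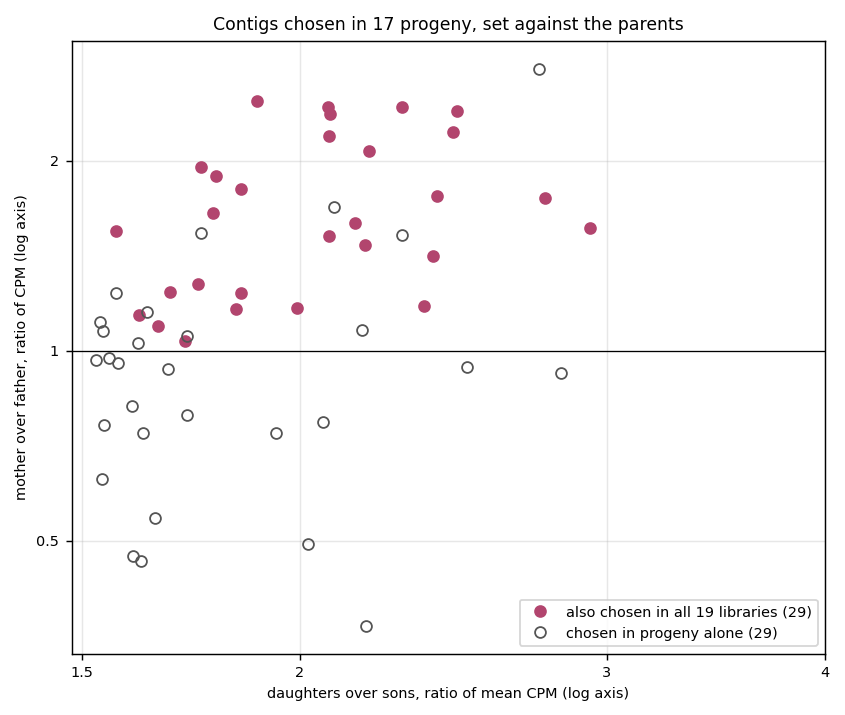
Ratio of mother to father CPM against the ratio of the daughters' to the sons' mean CPM, on log axes, for the 58 contigs that the rule takes in the 17 progeny alone; filled points are the 29 that are also among the 31 and open points are the other 29. Of the 58 points, 40 lie above the line of equal parents; the filled points all do so, and their choice in 19 libraries had included the parents.

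The rule did not compare generations, but both parents were among the trees of its pairs. A contig with a high father or a low mother could thus fail the rule. The choice may therefore have shaped the values for generation, which are given as a description. Its part in them was not tested. In an edgeR fit with sex as a further term, 3 of the 31 contigs were higher and 4 lower in the parents than in the progeny at an adjusted p under 0.05, against a background of 14.5% and 21.8% of contigs at 5 CPM or more. The median log2 fold change, parent over progeny, was 0.17 in the 31 contigs and -0.13 over the contigs at 5 CPM or more. With library totals in place of TMM factors these medians were -0.003 and -0.30, and 19 of the 31 lay above the median of all contigs under either scaling. With 1 mother and 1 father, this fit takes the spread of parents from the progeny.

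The contigs higher in the parents were Contig186568DeNovoAssembly, Contig275334DeNovoAssembly and Contig299408DeNovoAssembly. Contig299408DeNovoAssembly had 51.1 CPM in the mother and 21.1 CPM in the father. Its daughters ran from 15.7 to 56.5 CPM with a median of 22.5, and its sons from 6.12 to 19.7 CPM with a median of 11.1. The father exceeded every son, and the mother exceeded every daughter except daughter 2. The log2 fold change was 1.09 ± 0.33 (SE, edgeR adjusted p = 0.0170). It was 1.07 without the mother (adjusted p = 0.165) and 1.11 without the father (adjusted p = 0.128). For Contig186568DeNovoAssembly the fold change was 0.81 ± 0.24 (SE, edgeR adjusted p = 0.0151) and for Contig275334DeNovoAssembly 0.75 ± 0.21 (SE, edgeR adjusted p = 0.00851). The first of these was also the longest contig and the second the highest per kilobase.

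The contigs lower in the parents were Contig192064DeNovoAssembly, Contig300284DeNovoAssembly, Contig318380DeNovoAssembly and Contig398696DeNovoAssembly. In Contig318380DeNovoAssembly the mother had 4.48 CPM and the father 3.80 CPM. Its daughters ran from 9.37 to 22.7 CPM with a median of 14.98, and its sons from 4.74 to 8.65 CPM with a median of 6.33. Either parent lay below all progeny of its sex, and the mother lay below every son. The log2 fold change was -1.12 ± 0.32 (SE, edgeR adjusted p = 0.00988), and it was -0.60 without the mother (adjusted p = 0.371) and -1.65 without the father (adjusted p = 0.0136).

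Contig398696DeNovoAssembly gave 10.5 CPM in the mother and 7.16 CPM in the father. Its daughters ran from 17.6 to 31.8 CPM with a median of 25.6, and its sons from 8.19 to 13.5 CPM with a median of 11.7. Again the mother lay at the level of the sons. Its log2 fold change was -0.81 ± 0.22 (SE, edgeR adjusted p = 0.00681), and that of Contig192064DeNovoAssembly was -0.85 ± 0.30 (SE, edgeR adjusted p = 0.0317). Contig212562DeNovoAssembly had the largest positive value of the 31, at 1.18 ± 0.90 (SE, edgeR adjusted p = 0.350), and the value turned to -0.69 without the mother. Leaving out the mother left 0 of the 31 contigs called either way, and leaving out the father left 0 called higher and 3 lower.

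The sex difference in the parents was also set against that in the progeny. The rule chose the 31 contigs on these same values, most of them from pairs of daughters and sons, so that a larger difference in progeny than in the parents was favoured by the choice. The interaction, mother over father minus daughters over sons, is therefore a description. It had a median of -0.47 on the log2 scale over the 31 contigs and was above 0 in 9, against a median of -0.01 over the contigs at 5 CPM or more, and nothing is read from that gap. It was called in 0 of the 31 by edgeR, by DESeq2 and by limma-voom. With edgeR, 1 of the 31 had an unadjusted p under 0.05, and 0 of 63600 contigs passed the adjustment. The interaction was -0.94 ± 0.40 (SE) in Contig196904DeNovoAssembly and -1.04 ± 0.58 (SE) in Contig318380DeNovoAssembly. In Contig196904DeNovoAssembly the mother had 33.2 CPM and the father 21.2 CPM, against medians of 39.5 CPM in daughters and 13.97 CPM in sons.

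Small RNA was counted on the same contigs in buds of the mother and the father, in libraries of 19315399 and 14168901 counts. Of the 31 contigs, 27 had at least 10 small RNA counts over both parents, and Contig238778DeNovoAssembly and Contig275334DeNovoAssembly had none. The contigs held a median of 61.8 small RNA counts per kilobase, against 14.8 over the 33795 contigs. The ratio of CPM, mother over father, had a median of 1.12 in the 27 contigs, against 0.880 in the 24379 contigs of the background with as many counts, and it was above 1 in 16 of the 27 (59.3%), against 40.5%. With 1 library per parent no test was made.

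A ratio of at least 2 was found in 2 of the 27 contigs (7.41%, against a background of 5.10%) and a ratio of at most 0.5 in 0 (against 14.9%). Counting error alone passes these limits more often at low counts. The 31 contigs held more counts per kilobase than the background, so nothing is read from these shares. Contig192064DeNovoAssembly had 432 counts in the mother and 145 in the father, a CPM ratio of 2.19 with an exact 95% interval of 1.81 to 2.66. Contig285237DeNovoAssembly had 12 and 4, a ratio of 2.20 with an interval of 0.667 to 9.36, which includes equal levels. The interval lay above 1 in 6 of the 27 contigs and below 1 in 3, against a background of 7.57% and 11.5% of the 24379 contigs. It covers counting error only and narrows with the number of counts, which per kilobase was higher in the 31 contigs. The lowest ratios were 0.598 in Contig107520DeNovoAssembly, with 44 counts in the mother and 54 in the father, and 0.629 in Contig318380DeNovoAssembly, with 6 and 7 counts.

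The most small RNA fell on Contig249846DeNovoAssembly, with 1030 counts in the mother and 617 in the father over 278 bases, or 5924 counts per kilobase in both together. Contig100318DeNovoAssembly had 879 and 479 counts over 7026 bases, and Contig186568DeNovoAssembly had 633 and 438 over 8155 bases. Contig249846DeNovoAssembly thus carried more small RNA on a far shorter contig than either. Its mRNA was 5.34 CPM in the mother and 2.05 CPM in the father, and its small RNA ratio was 1.22 with an interval of 1.11 to 1.36. Across the 27 contigs the log2 ratios of mRNA and small RNA between mother and father had a Pearson's r of -0.17. Across 24316 contigs of the background r was 0.0708, all from the same 4 libraries. By rank, Spearman's rho was -0.0345, against 0.0820. The parents' mRNA had entered the choice and its ratio was above 1 in all 31 contigs, so no relation is read from these values. Contig212562DeNovoAssembly, with the largest mRNA ratio of the parents, had 27 small RNA counts in the mother and 24 in the father, a CPM ratio of 0.825.

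**Figure D5:**
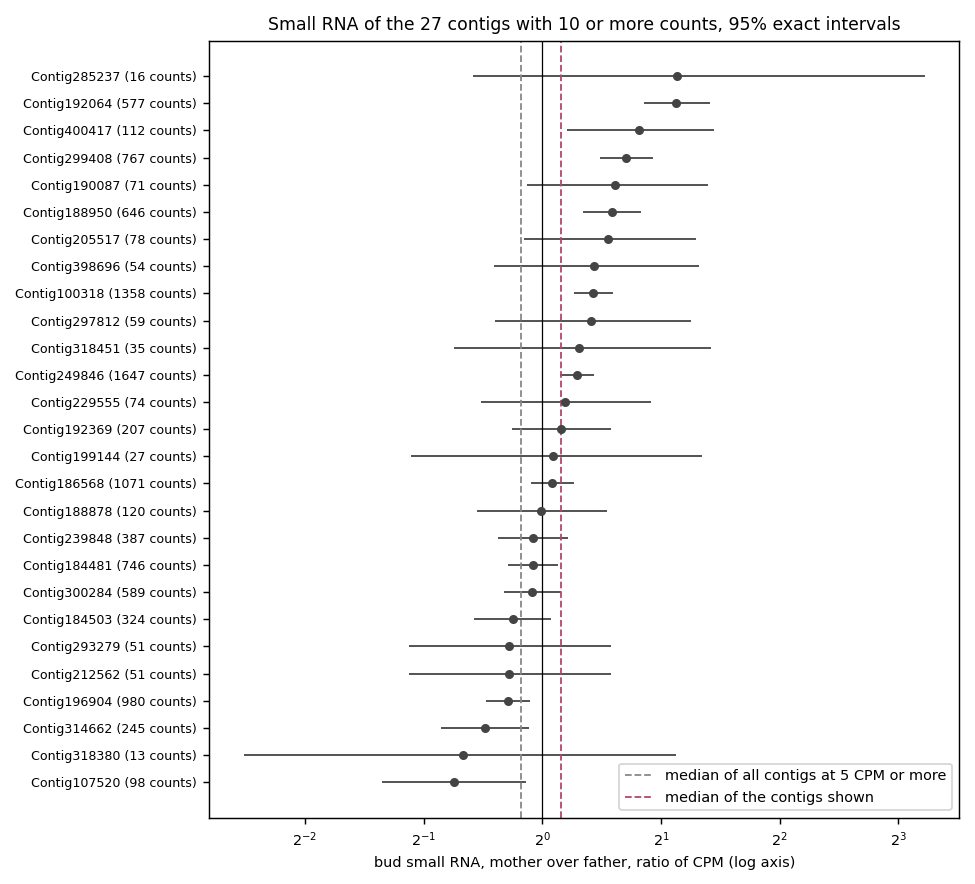
Ratio of bud small RNA CPM, mother over father, on a log axis for the 27 contigs with at least 10 counts, with exact 95% intervals for counting error; the dashed lines are the median of these contigs (1.12) and that of the 24379 background contigs with as many counts (0.880), and the ending DeNovoAssembly is left out of the IDs. The intervals of 6 contigs lie above 1 and those of 3 lie below it, against 7.57% and 11.5% of the background.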

How the data were processed

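Per the labels' protocols, bud mRNA was copied by random priming. Whole-number counts of reads on each de novo contig were deposited by the authors, 1 column per library, for mRNA (417827 contigs, 20 libraries) and small RNA (421126 contigs), with contig lengths beside the small RNA. BWA, R 3.0.1 and DESeq 1.14 are named in the submitters' processing notes. Their roles, how reads with more than 1 match were counted, and whether strand was used are not stated in the labels or headers, so near-identical or overlapping contigs may share reads. Son 5 (387 counts) was left out. The flower libraries of small RNA (2) were not used here.

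The members and lists were chosen with earlier results of these data known. CPM used column totals, and log values used a pseudocount of 0.5. Robust quasi-likelihood fits were made in edgeR 4.0.16 under R 4.3.3, after filterByExpr on sex and with TMM factors, Benjamini-Hochberg adjustment over 63600 contigs and a threshold of 0.05, with the procedure checked on simulated data. The SE of a log2 fold change is its size over the square root of F. Other settings were library totals, RLE factors, no filter, further terms, limma-voom (limma 3.58.1), DESeq2 1.42.0 and fits leaving out a library. Each tree gave 1 library, so p-values measure the spread between trees. Small RNA intervals are exact 95% conditional limits for counting error only, since no molecular identifiers were counted. Depth was a median of 6707373 counts per mRNA library. Without gene names, no list of pathway or marker genes could be applied.

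Contigs were named by rule: those with all pairs in order, the highest in level, ratio, level per kilobase and small RNA, those at the edges of the rule, the longest and shortest, and the extremes of the small RNA ratio, generation, interaction and correlation. The 7 contigs called for generation, the other contigs of the groups, and Contig190087DeNovoAssembly, Contig200644DeNovoAssembly and Contig239848DeNovoAssembly as extremes were named after their values were seen.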

Additional observations from a re-analysis of the deposited data

Results flagged for a closer look

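Within the daughters or the sons, 52 sets of values were examined for a tree far from the rest, and 9 were found. Chance gives about 1 in 20 sets when sets are independent and not chosen by their values. Here the sets share the same trees and include contigs named for extreme values, so no excess over chance is read. Son 6 accounts for 5 of the 9. Its library total was 15314430 counts, against 5823321 to 8661160 in the other sons, and it took part in 40 comparisons without a higher female, against 9 to 21. It was high in Contig212562DeNovoAssembly (16.1 CPM, against 0.413 to 2.23 in the other sons), in Contig100318DeNovoAssembly (19.1 CPM, against 9.82 to 14.1) and in Contig188878DeNovoAssembly (7.71 CPM, against 3.87 to 5.22). Daughter 9 was high in Contig275334DeNovoAssembly (28.1 CPM, against 15.1 to 21.5 in the other daughters) and low in Contig285237DeNovoAssembly (5.31 CPM, against 8.55 to 11.8). Daughter 1 was low in Contig300284DeNovoAssembly (42.5 CPM, against 51.8 to 60.2), and daughter 2 was high in Contig299408DeNovoAssembly (56.5 CPM, against 15.7 to 31.4).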

How the results depend on the processing

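The number of contigs taken depended on the limits and the trees. Against 31, it was 78 and 17 with a mean of at least 2 and 10 CPM, 16 with a ratio of at least 2, 11 and 5 with at least 86 and all 90 pairs, and 58 in the progeny alone. Leaving out each tree gave 26 to 86: 86 without daughter 9, 68 without son 6, 66 without the father, 50 without the mother and 47 without daughter 1. In all 19 such choices 25 of the 31 were kept. The rule with males higher took 25 with TMM-scaled CPM and 20 in the progeny alone, against 10. TMM scaling gave 25 contigs higher in females, and RLE scaling gave 29 higher in females and 10 higher in males. The sex fit called 23 of the 31 with DESeq2 and 5 with log2 library total as a term, against 12. For generation, the higher calls were 1 without a filter, and without 1 parent they were 0 higher and 0 to 3 lower. The value of Contig212562DeNovoAssembly, 1.18, reversed to -0.69 without the mother and was 1.93 without the father. For covariation, added after seeing the data, the median r was 0.119 with the length slope and 0.0640 with the first component regressed out, and 0.138 to 0.224 leaving out each progeny library. Small RNA calls higher in the mother were 0 at 4-fold and 1 at 50 counts. The cause of these changes was not tested. No paired analysis was possible because the replicate numbers only name trees and pair none. Counts as low as 3 per library limit the lowest contigs, and 1 library per parent limits every statement on the parents.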
